A study of Mus musculus with 9 samples.

Results

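Constitutive proteasome subunits were followed in mature megakaryocytes (mMKs) of irradiated mice, on all array probes whose gene name starts with Psma, Psmb, Psmc or Psmd followed by a digit. The inducible subunits Psmb8, Psmb9 and Psmb10 and names containing "-ps" were left out. The rule took 70 of the 56585 probes read, for 37 gene names. Of these names 2 were not counted as subunits tested: Psmc3ip, which matches by spelling only, and Psmb11, a thymus subunit that was not well above background on all arrays of any group. The 35 subunits tested, of 29210 genes tested, comprised 15 of the core particle and 20 counted with the regulatory particle, 3 of them its assembly chaperones.

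The mMKs came from the bone marrow of C57BL/6 male mice by positive selection for CD41 and then CD42d, and their RNA was read on 9 Agilent arrays of 1 colour. Mice received a single total-body dose of 5 Gy of gamma rays from a cobalt source (ionizing radiation, IR) and mMKs were taken 1 day or 3 days later (1 dpi and 3 dpi), while Ctrl mice were sham-irradiated. Each group had 3 arrays, described by the submitters as independent experiments with different donors, so p-values measure the spread between these samples. The labels name no genetic change in these groups, and the age the methods state, 8 to 10 weeks, stands beside knockout animals and their floxed controls. The selected cells were read as a bulk fraction.

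The 26S proteasome degrades proteins marked with ubiquitin. Its core particle is a barrel of stacked rings, in which alpha subunits form the gated outer rings and beta subunits the inner rings with the proteolytic sites, and its regulatory particle caps the barrel with a base of ATPases that unfold the substrate and a lid that removes ubiquitin. In megakaryocytes proteasome function is needed for platelet production, and proteasome inhibitors are known to lower platelet number.

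All values below are log2 intensity minus the 75th percentile of that array, so a difference of 1 is a 2-fold change, and changes are log2 differences of group means. A gene was represented by its brightest probe. A gene was called when limma gave a Benjamini-Hochberg adjusted p under 0.05 over all genes, and a second rule asked for at least a 2-fold change as well. The share of probes well above background was 69.1%, 79.5% and 80.8% on the Ctrl arrays, 72.3%, 74.8% and 75.6% at 1 dpi and 81.8%, 81.6% and 81.8% at 3 dpi. Correlations between arrays of a group across genes ran from 0.987 to 0.998. Ctrl replicate 1, the array with the lowest share, was alone on slide 1, and the other 8 arrays were on slide 2, so values within slide 2 are those without Ctrl replicate 1.

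The cell label was checked against 17 megakaryocyte genes, all of which were tested and well above background. Their summed level was 8.09, 7.92 and 7.91 on the Ctrl arrays, 7.91, 7.82 and 7.79 at 1 dpi and 8.04, 8.01 and 8.0 at 3 dpi, with Pf4, a platelet chemokine, the brightest of the list. At 1 dpi 3 of the 17 were called higher and 6 lower, at 3 dpi the counts were 6 and 2, and between the days 8 and 1, with medians of -0.12, 0.01 and 0.29. The second was -0.02 with quantile normalization and -0.05 with median scaling, while at 1 dpi these gave -0.33 and -0.30, each with 9 lower, and relative to all genes 11 of the 17 were lower there. The defining markers were present in each group, and markers of other lineages, given further on, were read in the same bulk fractions. The sums of 10 neutrophil genes, 10.59 to 11.36, were above the megakaryocyte sums on every array. Erythroid sums, 8.14 to 8.44, were above them at 1 dpi and below them in Ctrl and at 3 dpi. The other lineage lists summed lower. Sums over different genes and probes do not give shares of cells, and purity was not tested.

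The members lie on 16 chromosomes. Of the 37 gene names, 15 had 1 probe and 22 had several, and 67 of the 70 probes were well above background on all 9 arrays. The probes used for the 35 subunits were well above background on every array, so no subunit was kept only through the group in which it was high. The probe sequences of 5 subunits are shown: Psmb5 and Psmb7 carry proteolytic sites, Psmc6 and Psmd11 have the largest differences between the days of all subunits, and Psma3 has 2 RefSeq mRNA probes of the same direction, the dimmer of which is shown. They are given 5′ to 3′ as deposited, in lower case with no part marked, at mm9 positions, on the minus strand for Psmb5 (chr14:55233161-55233220) and Psmb7 (chr2:38468966-38489385) and on the plus strand for Psmc6 (chr14:45966487-45968313), Psmd11 (chr11:80283406-80283920) and Psma3 (chr12:72094057-72094541).
Psmb5: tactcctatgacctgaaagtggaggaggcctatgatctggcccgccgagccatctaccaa
Psmb7: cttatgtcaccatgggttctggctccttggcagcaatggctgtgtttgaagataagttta
Psmc6: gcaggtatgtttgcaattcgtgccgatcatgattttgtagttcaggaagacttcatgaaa
Psmd11: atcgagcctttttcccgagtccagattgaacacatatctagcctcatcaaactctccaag
Psma3: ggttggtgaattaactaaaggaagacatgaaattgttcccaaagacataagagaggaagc
The Psmb5 probe matches without a gap. The other 4 probes match across an exon junction, so their 60 bases span 20420 bases of the genome for Psmb7, 1827 for Psmc6, 515 for Psmd11 and 485 for Psma3. The Psma3 sequence belongs to the dimmer of its RefSeq mRNA probes, with changes of -0.02, 0.42 and 0.44 at 1 dpi, at 3 dpi and between the days, and the brighter one gave the gene's values; the other 4 are the probes used for their genes.

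At 1 dpi subunits were called on both sides of Ctrl, in a balance that turned with the scaling. Psmb3, Psmb4, Psmb5, Psmb6, Psmc1, Psmc3, Psmc5, Psmd3, Psmd4 and Psmd9 were called higher than in Ctrl, and Psma1, Psma8, Psmc6, Psmd5, Psmd10 and Psmd11 lower. That is 10 of 35 higher, where 33.5% of all genes were called higher, and 6 of 35 lower, where 21.8% were. No subunit changed at least 2-fold by limma, against 14.8% of all genes. Before adjustment 11 subunits were higher and 7 lower at p under 0.05, beside 11081 and 6944 of the 29210 genes. The methods' t-test gave 10 and 7, beside 8768 and 6681. Fewer cells of a type and less RNA per cell cannot be told apart in these bulk fractions. The 6 subunits called lower were also called lower under quantile normalization, median scaling, normexp background correction and within slide 2, whereas of the subunits called higher none was called after median scaling and quantile normalization left 3 higher calls, of Psmb5, Psmc5 and Psmd9, with Psmc3 and Psmb4 at -0.15 and -0.0036 there. Lower calls rose to 12 with quantile normalization (27.9% of all genes lower, 23.3% higher), 9 with median scaling (27.9% and 24.3%) and 10 with normexp (21.4% and 58.7%), the last beside 10 higher.

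At 3 dpi 33 of 35 subunits lay above Ctrl, as did 18048 of the 29210 genes, and 30 of 35 lay above the median of all genes; 18 were called higher (17.2% of all genes) and 1, Psma8, lower (14.8%). Psmb1, at -0.04, was the other subunit below Ctrl. After median scaling 6 were called higher (14.1% of all genes), namely Psmb5, Psma6, Psmc2, Psmc5, Psmd12 and Psmd14, so the other 12 lost the call, and after quantile normalization 12 were (15.4%), with both particles above Ctrl in each. The size stayed under 2-fold throughout, while 8.83% of all genes passed that rule. Directly compared with 1 dpi, 14 subunits were higher at 3 dpi, where 21% of all genes were called higher and 23.3% lower, and 8.65% at least 2-fold. None was called lower by limma, 0 were lower at an unadjusted p under 0.05, and the methods' t-test gave 1. Of the 29210 genes 8202 were lower at an unadjusted p under 0.05 and 9239 by the methods' t-test. Group values were fully separate for 62.9% of the subunits at 1 dpi against Ctrl (67.2% of all genes), 80% at 3 dpi against Ctrl (47.2%) and 62.9% between the days (65.2%). The 3 comparisons share arrays, Ctrl in the first 2, so their values are set side by side only.

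Over all 35 subunits the median change was 0.02 at 1 dpi, 0.23 at 3 dpi and 0.17 between the days. The core particle had medians of -0.01, 0.23 and 0.19 and the regulatory particle 0.09, 0.24 and 0.16. Array by array, the median deviation of core subunits from their Ctrl means was 0.12, -0.03 and -0.07 on the Ctrl arrays, -0.06, 0.04 and 0.01 at 1 dpi and 0.24, 0.25 and 0.22 at 3 dpi. For the regulatory particle it was 0.07, -0.03 and -0.05, then 0.09, 0.07 and 0.10, then 0.29, 0.21 and 0.22. In both particles the 3 dpi arrays stood above all others, and the 1 dpi arrays of the core particle lay among the Ctrl arrays. The interquartile range of change was 0.33, 0.12 and 0.28 over the subunits in the 3 comparisons and 0.93, 0.58 and 0.70 over all genes.

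**Figure D1:**
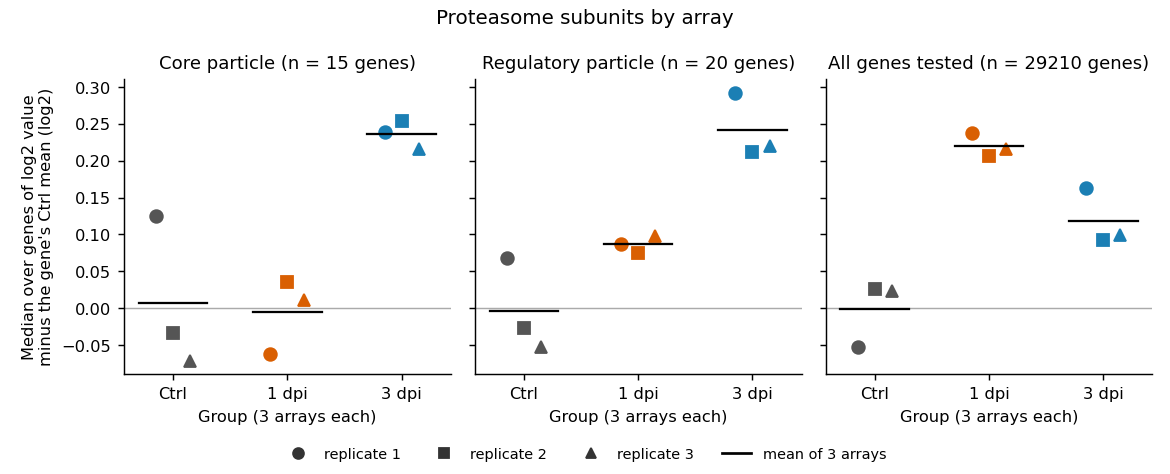
Median over genes of the log2 value minus the gene's Ctrl mean (vertical axis, log2) on each of the 9 arrays, for core particle, regulatory particle and all genes tested, with a line at the mean of 3 arrays. Both particles sit at 0.21 to 0.29 on the 3 dpi arrays, above every Ctrl and 1 dpi array. Relative to each array's median of all genes, not drawn, Ctrl replicate 1 was above the 3 dpi arrays for the core particle.

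Relative to all genes the picture at 1 dpi was different. The median of all genes itself was 0.23 above Ctrl at 1 dpi, 0.12 at 3 dpi and -0.08 between the days, and it moved with the scaling, to 0.00, 0.01 and 0.02 with quantile normalization, 0.05, 0.06 and 0.04 with median scaling and 0.43, 0.04 and -0.33 with normexp, so that its sign between the days turned with the first 2. Relative to that median the core particle stood at -0.24 at 1 dpi, 0.11 at 3 dpi and 0.27 between the days, and the regulatory particle at -0.14, 0.12 and 0.24. With 1 array left out, the 3 dpi values ran from 0.047 to 0.28 for the core and from 0.074 to 0.30 for the regulatory particle. Both were lowest without Ctrl replicate 3 and highest without Ctrl replicate 1. Tested against the median of all genes, 17 subunits were lower at 1 dpi (32.8% of all genes) and none higher (20.5% of all genes; limma, 1 at an unadjusted p under 0.05). At 3 dpi 6 were higher (12.9%), namely Psmb5, Psma6, Psmc2, Psmc5, Psmd12 and Psmd14, and Psma8 was lower (21.9%). Between the days 19 were higher (25.5%) and none lower (18.3%; 0 also at an unadjusted p under 0.05).

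Both particles stayed below all genes at 1 dpi under each scaling, by quantile normalization at -0.19 for the core and -0.03 for the regulatory particle, and within slide 2 at -0.10 and -0.03, but without its 3 assembly chaperones the regulatory particle, at -0.13, turned to 0.01 and 0.02 there. The other 17 regulatory subunits had medians of 0.10, 0.27 and 0.14, the first -0.08 with median scaling. At 1 dpi 5 were called higher (33.5% of all genes) and 2 lower (21.8%). At 3 dpi 10 were higher (17.2%) and between the days 6 (21%). Median scaling gave 0 higher and 4 lower at 1 dpi and 4 higher at 3 dpi. Quantile normalization gave 1 higher and 4 lower at 1 dpi and 6 higher at 3 dpi. The position of the particles relative to all genes also depended on the reference genes. Genes read by a probe on a RefSeq mRNA had a median change of 0.08 at 1 dpi and the other 12980 genes 0.40, and relative to the former 16230 genes the core particle stood at -0.09 and the regulatory particle at 0.01. At 3 dpi and between the days the same reference left both above, at 0.14 and 0.15 for the core and 0.15 and 0.12 for the regulatory particle. Within slide 2 the medians were 0.03, 0.28 and 0.19 for the core and 0.10, 0.31 and 0.16 for the regulatory particle, with 13 subunits called higher and 6 lower at 1 dpi (34% and 22.3% of all genes), 25 and 1 at 3 dpi (19.3% and 15.8%) and 17 and 0 between the days (24.8% and 32.8%; 1 lower at an unadjusted p under 0.05). Of all genes called at 1 dpi 60.5% were higher, and 45.5%, 46.5% and 73.3% with quantile, median and normexp processing; between the days the share was 47.5%, and 55.1%, 60.4% and 26.7%.

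The alpha ring gates entry to the barrel. Of its 8 members 2 were called lower at 1 dpi by limma, beside 21.8% of all genes, and none higher, beside 33.5%. At an unadjusted p under 0.05 there were 0 higher, and by the methods' t-test 1. At 3 dpi 4 were higher (17.2% of all genes) and 1 lower (14.8%), and 6 were higher at 3 dpi than at 1 dpi (21%). With quantile normalization 6 were lower at 1 dpi and 2 higher at 3 dpi, with median scaling 3 and 1. Psma1 read 4.82, 4.86 and 4.88 on the Ctrl arrays, 4.40, 4.52 and 4.56 at 1 dpi and 4.88, 5.04 and 5.08 at 3 dpi. The 3 arrays at 1 dpi were below all others, and those of 3 dpi started where Ctrl ended. The change was -0.36 at 1 dpi (SE 0.07, limma adjusted p = 0.00471), 0.15 at 3 dpi (adjusted p = 0.168) and 0.51 between the days (adjusted p = 0.00122).

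Psma6, another alpha subunit, stood at 5.45, 5.45 and 5.40 in Ctrl, 5.47, 5.47 and 5.42 at 1 dpi and 5.80, 5.77 and 5.72 at 3 dpi. Ctrl and 1 dpi arrays overlapped and the 3 dpi arrays were all higher, by 0.33 against Ctrl (SE 0.05, limma adjusted p = 0.00282) and 0.31 against 1 dpi (adjusted p = 0.00312). Psma3 gave 5.48, 5.33 and 5.26 in Ctrl, 5.26, 5.33 and 5.35 at 1 dpi and 5.59, 5.65 and 5.57 at 3 dpi. Here too only the 3 dpi arrays stood apart, at 0.24 above Ctrl (SE 0.07, limma adjusted p = 0.0389) and 0.29 above 1 dpi (adjusted p = 0.0145), the latter at adjusted p = 0.0531 without 1 dpi replicate 1 and 0.0584 without 3 dpi replicate 2. The difference of Psma3 between the days had the other sign in the authors' own log2 values. Psma4 and Psma7 were also called higher at 3 dpi, by 0.23 and 0.26, and Psma2 and Psma5 between the days, by 0.24 and 0.28.

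Psma8, the alpha subunit known from the testis proteasome, was the only subunit called lower at 3 dpi. Its probe read -0.16, -0.45 and -0.47 in Ctrl, -0.91, -0.96 and -0.98 at 1 dpi and -0.99, -1.04 and -0.98 at 3 dpi. All 6 irradiated arrays were below the 3 Ctrl arrays, and Ctrl replicate 1 on slide 1 was the highest. Psma8 fell by 0.59 at 1 dpi (SE 0.09, limma adjusted p = 0.00104) and by 0.64 at 3 dpi (adjusted p = 0.00108), and within slide 2 the changes were -0.49 and -0.54. Between the days it differed by -0.05 (adjusted p = 0.673), a difference whose sign turned with quantile normalization and median scaling. Without Psma8 the median of the other 34 subunits was 0.03, 0.24 and 0.18, with 18 called higher at 3 dpi.

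The beta ring holds the proteolytic subunits Psmb6, Psmb7 and Psmb5, with caspase-like, trypsin-like and chymotrypsin-like activity. Psmb5 read 3.25, 3.07 and 3.05 in Ctrl, 3.52, 3.43 and 3.48 at 1 dpi and 3.71, 3.57 and 3.52 at 3 dpi. Both irradiated groups lay above Ctrl and met each other at 3.52. The rise was 0.35 at 1 dpi (SE 0.08, limma adjusted p = 0.00734) and 0.48 at 3 dpi (SE 0.08, adjusted p = 0.00283), a fold of 1.39 and the largest increase of a core subunit at 3 dpi.

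Psmb6 read 5.31, 5.30 and 5.34 in Ctrl, 5.72, 5.70 and 5.69 at 1 dpi and 5.74, 5.58 and 5.55 at 3 dpi. Its irradiated arrays overlapped each other and none overlapped Ctrl, with changes of 0.39 (SE 0.07, limma adjusted p = 0.00189) and 0.30 (adjusted p = 0.00982). Psmb7 read 3.14, 2.89 and 2.89 in Ctrl, 2.82, 2.83 and 3.01 at 1 dpi and 2.96, 3.23 and 3.22 at 3 dpi. The 3 groups overlapped, and neither -0.09 at 1 dpi (limma adjusted p = 0.517) nor 0.16 at 3 dpi (adjusted p = 0.298) passed. Of the 3 catalytic subunits Psmb5 and Psmb6 were thus called higher at 1 dpi and Psmb7 was not, and differences between subunits were not tested.

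Of the 7 beta subunits, 4 were called higher at 1 dpi (33.5% of all genes; 1 with quantile normalization, 0 with median scaling) and 3 at 3 dpi (17.2%; 2 and 1), with medians of 0.28 and 0.21, and none lower in either (limma; 0 at an unadjusted p under 0.05 and by the methods' t-test). Tested against the median of all genes, 3 of these 7 were lower at 1 dpi (32.8% of all genes) and 0 higher (20.5%). Normexp gave 1 lower there, beside 4 higher. At 1 dpi the beta ring's median was 0.03 with quantile normalization, 0.10 with median scaling, 0.18 with normexp and 0.34 within slide 2, and its position relative to all genes, 0.05, turned to -0.24 with normexp. The alpha ring's median at 1 dpi was -0.03, from -0.28 with quantile normalization to 0.02 within slide 2. Psmb3 and Psmb4, both structural beta subunits without a proteolytic site, rose by 0.35 and 0.28 at 1 dpi. None of the beta ring was called between 1 and 3 dpi by limma, with 1 higher at an unadjusted p under 0.05 and 0 by the methods' t-test, beside 6 of 8 alpha subunits called higher. That count for the beta ring moved to 1 with median scaling, 3 with normexp and 2 against the median of all genes, and the rings were not tested against each other.

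**Figure D2:**
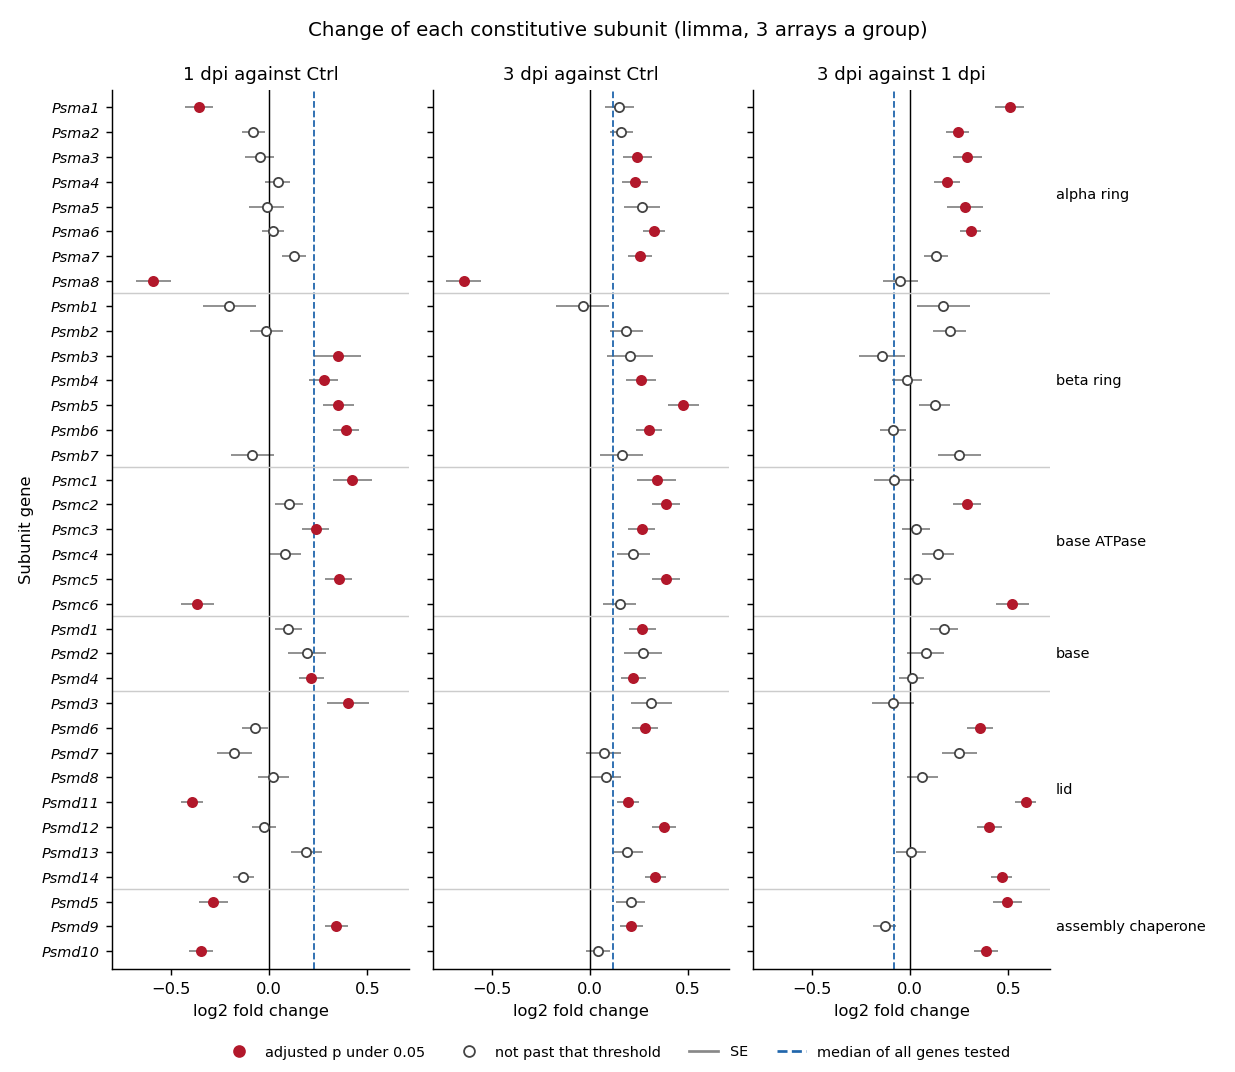
Log2 fold change of each of the 35 subunits (points, with SE) in the 3 comparisons, grouped by their place in the particle, filled where the limma adjusted p was under 0.05, with a dashed line at the median of all genes. At 1 dpi the called subunits lie on both sides of 0, with those above 0 lost under median scaling, and at 3 dpi Psma8 is the only called subunit to the left of 0.

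The base of the regulatory particle is a ring of 6 ATPases with 3 further subunits. Psmc1, an ATPase whose tail opens the gate of the core, read 5.43, 5.09 and 5.06 in Ctrl, 5.63, 5.60 and 5.61 at 1 dpi and 5.59, 5.52 and 5.48 at 3 dpi. All irradiated arrays were above Ctrl, of which replicate 1 came within 0.1 of them, and the changes were 0.42 (SE 0.10, limma adjusted p = 0.00924) and 0.34 (adjusted p = 0.036). Psmc5 read 3.57, 3.72 and 3.71 in Ctrl, 4.03, 3.99 and 4.05 at 1 dpi and 4.14, 4.01 and 4.02 at 3 dpi. Both irradiated groups were again above Ctrl and overlapped each other, at 0.35 (SE 0.07, limma adjusted p = 0.00376) and 0.39 (adjusted p = 0.00384).

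Psmc2, a neighbouring ATPase of the same ring, read 3.95, 4.12 and 4.08 in Ctrl, 4.15, 4.14 and 4.16 at 1 dpi and 4.54, 4.38 and 4.41 at 3 dpi. It was called only at the later day, by 0.39 against Ctrl (SE 0.07, limma adjusted p = 0.00442) and 0.29 against 1 dpi (adjusted p = 0.0129). Psmc6, in contrast, read 4.81, 4.62 and 4.60 in Ctrl, 4.26, 4.33 and 4.34 at 1 dpi and 4.70, 4.89 and 4.90 at 3 dpi. The 1 dpi arrays were below all others, and Ctrl and 3 dpi arrays overlapped. Psmc6 fell by 0.37 at 1 dpi (SE 0.08, limma adjusted p = 0.00791) and was 0.52 higher at 3 dpi than at 1 dpi (adjusted p = 0.00205).

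At 1 dpi 3 of the 6 ATPases were called higher (33.5% of all genes; 1 with quantile normalization, 0 with median scaling) and 1 lower (21.8%), and at 3 dpi 4 were higher (17.2%; 2 with either), with medians of 0.17 and 0.30, the former -0.01 with median scaling. The 3 other base subunits, Psmd1, Psmd2 and the ubiquitin receptor Psmd4, had medians of 0.19 and 0.27. Psmd4 was called higher at both days, by 0.21 and 0.22, and Psmd1, a scaffold of the base, at 3 dpi by 0.27, calls lost with quantile normalization and with median scaling. Psmd2, the other scaffold, had changes of 0.19 and 0.27 that did not pass, while its other RefSeq mRNA probe, which is dimmer, was called higher on both days, by 0.86 and 0.47, and lower between the days, at -0.38.

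The lid carries Psmd14, the enzyme that removes ubiquitin chains from substrates, among scaffold subunits. Psmd11 read 1.47, 1.46 and 1.40 in Ctrl, 1.04, 1.03 and 1.08 at 1 dpi and 1.64, 1.60 and 1.67 at 3 dpi. The 3 groups formed 3 separate levels, lowest at 1 dpi and highest at 3 dpi. Psmd11 fell by 0.39 at 1 dpi (SE 0.05, limma adjusted p = 0.000697), rose by 0.20 at 3 dpi (adjusted p = 0.0281, but 0.267 with median scaling and 0.341 against the median of all genes) and differed by 0.59 between the days (SE 0.05, adjusted p = 0.000165), the largest difference of any subunit in that comparison. Its difference between the days had the other sign in the authors' own log2 values.

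Psmd12 read 4.01, 4.01 and 4.02 in Ctrl, 3.93, 4.01 and 4.03 at 1 dpi and 4.30, 4.44 and 4.43 at 3 dpi. Ctrl and 1 dpi arrays overlapped, and the 3 dpi arrays stood above both, by 0.38 (SE 0.06, limma adjusted p = 0.00245) and 0.40 (adjusted p = 0.00153). Psmd3 read 5.26, 4.92 and 4.97 in Ctrl, 5.49, 5.45 and 5.41 at 1 dpi and 5.50, 5.33 and 5.26 at 3 dpi. Its 1 dpi arrays were above Ctrl, by 0.40 (SE 0.11, limma adjusted p = 0.014), while Ctrl replicate 1 met the lowest 3 dpi array and the 0.31 at 3 dpi did not pass (adjusted p = 0.0568). In the authors' own log2 values the change of Psmd3 at 1 dpi had the other sign. Psmd14 was 0.34 above Ctrl at 3 dpi and 0.47 above 1 dpi.

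Of the 8 lid subunits 1 was called higher and 1 lower at 1 dpi, 4 higher at 3 dpi and 4 higher between the days, where 33.5% and 21.8%, 17.2% and 21% of all genes were, and the medians were -0.05, 0.24 and 0.30. At 1 dpi 3 were lower and 0 higher with quantile normalization and with median scaling, and at 3 dpi 2 were higher with the latter. Between the days the alpha ring stood at 0.26, the beta ring at 0.12, the ATPases at 0.09 and the other base subunits at 0.08, and differences between parts were not tested; with quantile normalization the alpha ring, at 0.41, was above the lid, at 0.28. With quantile normalization the lid stood at -0.12 and with median scaling at -0.23 at 1 dpi, on the same side of 0.

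Psmd5, Psmd9 and Psmd10 carry subunit names but act as chaperones that assemble the base and leave before the particle is mature. Psmd10 read 2.62, 2.58 and 2.53 in Ctrl, 2.23, 2.20 and 2.26 at 1 dpi and 2.69, 2.61 and 2.54 at 3 dpi. Psmd5 read 1.43, 1.39 and 1.37 in Ctrl, 0.97, 1.15 and 1.20 at 1 dpi and 1.66, 1.57 and 1.58 at 3 dpi. In both the 1 dpi arrays were the lowest, and for Psmd10 Ctrl and 3 dpi overlapped. Psmd10 fell by 0.35 (SE 0.06, limma adjusted p = 0.00231) and Psmd5 by 0.29 (SE 0.07, adjusted p = 0.0133) at 1 dpi, and both were higher at 3 dpi than at 1 dpi, by 0.39 and 0.49. Psmd9, the third chaperone, instead rose at 1 dpi by 0.34 and at 3 dpi by 0.21.

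**Figure D3:**
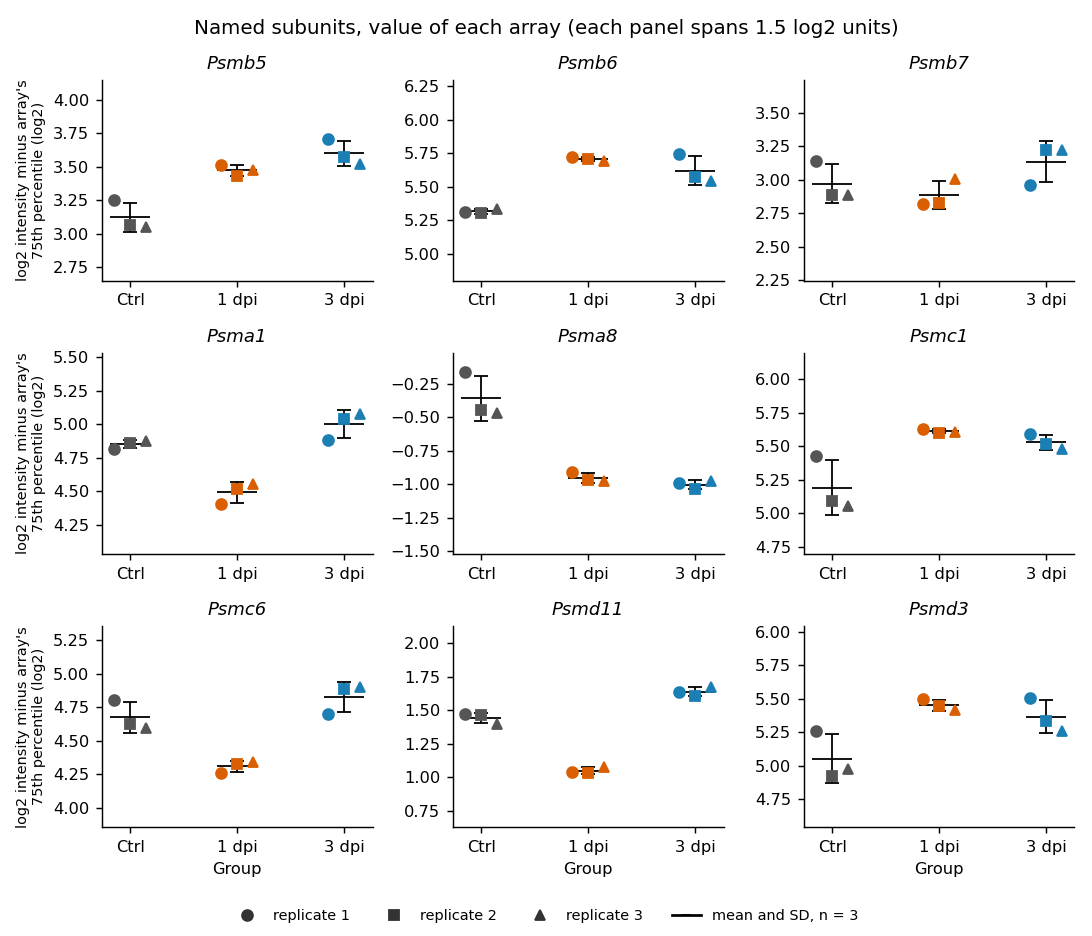
Log2 intensity minus the array's 75th percentile (vertical axis) on each array for 9 subunits, with mean and SD of 3 arrays, each panel spanning 1.5 log2 units. Psma1, Psmc6 and Psmd11 are lowest at 1 dpi, Psmb5, Psmb6 and Psmc1 lie above Ctrl on both days, and Psma8 lies below Ctrl on both days.

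Since members of both directions are found in the same particle, their promoters were read for letters known from proteasome genes: TGACNNNGC, the core of the antioxidant response element that Nfe2l1 binds, CCAAT, bound by the trimer of Nfya, Nfyb and Nfyc, and GGGCGG, bound by Sp1, each on either strand. Promoters in the RefSeq table were read for 28 of the 35 subunits, 30 sequences in all, since Psma6 and Psmc2 had 2 each. None was read for Psma8, Psmb1, Psmb2, Psmb7, Psmc3, Psmd3 and Psmd7. For Psma8 this does not mean that the table lacks a promoter. Psma8, called lower at 1 dpi, is therefore not among the 5 promoters of subunits called lower. Shown are the 250 bases before the start (GRCm38.p6) of Psmb5, Psmb6 and Psmc1, higher at 1 dpi, and of Psma1, Psmc6 and Psmd11, lower at 1 dpi, with TGACNNNGC and CCAAT in capitals. Positions are chr14:54617996-54618245 (minus strand) for Psmb5, chr11:70525107-70525356 (plus) for Psmb6, chr12:100109952-100110201 (plus) for Psmc1, chr7:114276117-114276366 (minus) for Psma1, chr14:45329574-45329823 (plus) for Psmc6 and chr11:80428365-80428614 (plus) for Psmd11.
Psmb5: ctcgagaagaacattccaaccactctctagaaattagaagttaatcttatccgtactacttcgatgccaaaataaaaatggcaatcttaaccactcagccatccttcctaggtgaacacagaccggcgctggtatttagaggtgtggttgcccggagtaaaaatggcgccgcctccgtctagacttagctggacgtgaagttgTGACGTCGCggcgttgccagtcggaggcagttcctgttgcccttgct
Psmb6: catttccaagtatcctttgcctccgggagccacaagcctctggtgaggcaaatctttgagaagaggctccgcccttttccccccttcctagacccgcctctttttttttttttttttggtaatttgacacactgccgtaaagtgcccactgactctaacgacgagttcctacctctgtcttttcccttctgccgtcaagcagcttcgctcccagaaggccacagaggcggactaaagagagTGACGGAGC
Psmc1: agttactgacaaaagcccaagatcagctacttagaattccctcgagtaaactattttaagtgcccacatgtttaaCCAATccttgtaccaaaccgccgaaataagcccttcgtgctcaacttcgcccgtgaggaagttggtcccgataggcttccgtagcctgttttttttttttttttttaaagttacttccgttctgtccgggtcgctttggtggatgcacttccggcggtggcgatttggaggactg
Psma1: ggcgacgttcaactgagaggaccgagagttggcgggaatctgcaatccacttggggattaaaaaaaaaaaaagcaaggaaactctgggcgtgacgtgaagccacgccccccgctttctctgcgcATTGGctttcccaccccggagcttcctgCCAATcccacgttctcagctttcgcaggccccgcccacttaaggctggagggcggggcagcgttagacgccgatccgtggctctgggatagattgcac
Psmc6: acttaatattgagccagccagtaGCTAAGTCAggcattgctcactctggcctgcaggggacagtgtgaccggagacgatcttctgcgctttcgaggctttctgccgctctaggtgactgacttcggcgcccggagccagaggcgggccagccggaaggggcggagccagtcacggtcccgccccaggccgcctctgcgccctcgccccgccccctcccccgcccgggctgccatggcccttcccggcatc
Psmd11: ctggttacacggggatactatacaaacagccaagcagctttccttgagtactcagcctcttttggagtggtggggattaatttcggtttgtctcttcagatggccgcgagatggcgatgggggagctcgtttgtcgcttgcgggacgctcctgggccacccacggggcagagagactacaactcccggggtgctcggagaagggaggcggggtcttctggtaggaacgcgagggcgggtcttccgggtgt
TGACNNNGC was found in 5 of the 30 subunit promoters (16.7%), those of Psmb5, Psmb6, Psmc6, Psmd9 and Psmd12, and in 10.2% of the 32851 promoters of the table. It stood in 3 of 8 promoters of subunits called higher at 1 dpi and in 1 of 5 of those called lower. CCAAT was in 36.7% of subunit promoters and 33.8% of all, in 3 of 8 of those higher and 2 of 5 of those lower. GGGCGG was in 56.7% and 32.7%, in 3 of 8 and 5 of 5. No TGACNNNGC overlapped a CCAAT. A match of letters is a description of the sequence.

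Probes of the same gene did not always move together. Of the 67 kept probes of the subunits, 56 lay on a RefSeq mRNA, with median changes of 0.02, 0.23 and 0.20 in the 3 comparisons, and 11 on other transcripts, with 0.31, -0.06 and -0.30. Over all kept probes, 25066 on RefSeq mRNAs had medians of 0.11, 0.07 and -0.01 and 19234 on other transcripts 0.33, 0.08 and -0.23. The medians of the 2 kinds lay close together at 3 dpi, but the shares called did not. Of the RefSeq mRNA probes 19.8% were higher and 15.1% lower at 3 dpi, and of the others 11.4% and 18.4%. The probes used for the 35 subunits were all on RefSeq mRNAs. Psma3 is an example with opposite calls. Its probe on another transcript read -0.66, -0.52 and -0.46 in Ctrl, 0.02, 0.30 and 0.23 at 1 dpi and -1.19, -0.78 and -1.02 at 3 dpi. That probe was highest at 1 dpi and lowest at 3 dpi with no overlap of groups, changing by 0.73, -0.45 and -1.18, while the RefSeq mRNA probe used above changed by -0.05, 0.24 and 0.29. Probes of Psmb2, Psmd1 and Psmd14 on other transcripts were likewise called lower between the days, at -0.77, -0.43 and -0.69, while a RefSeq mRNA probe of the same gene was called higher.

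**Figure D4:**
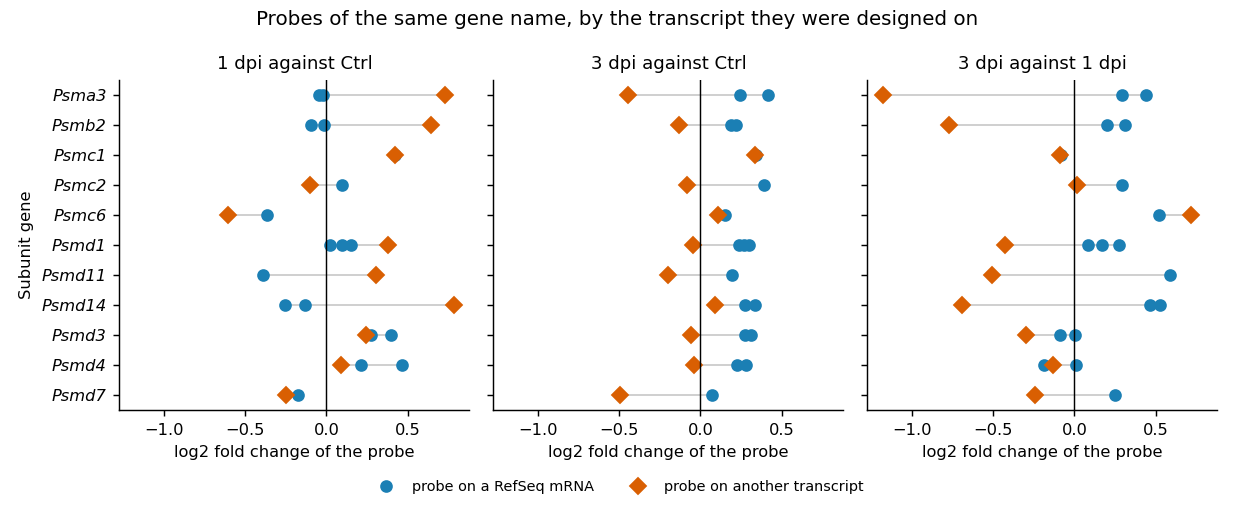
Log2 fold change of each kept probe (points) in the 3 comparisons, for the 11 subunits that have a probe on another transcript. Points are split by whether the probe lies on a RefSeq mRNA or on another transcript. Probes on other transcripts have a median of 0.31 at 1 dpi and -0.30 between the days. The 56 RefSeq mRNA probes of all 35 subunits, of which only those of the 11 subunits are drawn, have 0.02 and 0.20.

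Position within the mRNA was compared for 14 subunits with more than 1 RefSeq mRNA probe. At 1 dpi the change at the 3′ probe minus that at the 5′ probe had a median of 0.12 and was above 0 in 10 of 14, while over 5346 genes the median was -0.19 and 36.7% were above 0. At 3 dpi it was 0.05, above 0 in 10, against -0.00 and 49.5%, but array by array it was 0.33, -0.08 and -0.12, so only replicate 1 lay above 0. It was -0.10 between the days, above 0 in 5, against 0.18 and 66.1%. Psmd6, a lid subunit, showed -0.54 at its 5′ probe and -0.07 at its 3′ probe at 1 dpi, and Psma4 -0.35 and 0.04, whereas Psmd2 showed 0.86 and 0.19. The part of such position effects in the results was not tested.

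Other large complexes give a scale for these sizes. The 79 cytosolic ribosomal proteins had medians of 0.48, -0.02 and -0.46 in the 3 comparisons, which turned to -0.18 and 0.08 in the first and the last with quantile normalization, with 59 called higher at 1 dpi and 65 lower between the days. With quantile normalization 36 were instead lower at 1 dpi beside 9 higher, and between the days 19 were higher beside 4 lower. The 36 subunits of respiratory complex I had medians of -0.01, 0.11 and 0.09, with 3 higher and 5 lower at 1 dpi, 8 higher at 3 dpi and 12 higher between the days, where 14 of the 35 proteasome subunits were called (19 and 17 with quantile normalization). At 1 dpi 16 of complex I were lower and 1 higher with quantile normalization and 11 lower with median scaling, and at 3 dpi the former left 1 on each side and the latter none. Relative to all genes, 21 of these 36 were lower at 1 dpi, beside 17 of the 35. The 8 subunits of the chaperonin CCT, which folds actin and tubulin, stood at 0.03, 0.12 and 0.04, the first -0.26 with quantile normalization, with 1 called higher at 3 dpi and 3 between the days, and 4 lower at 1 dpi with quantile normalization. At 3 dpi the core and regulatory particles, at 0.23 and 0.24, had the highest medians of these complexes, a difference that was not tested.

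**Figure D5:**
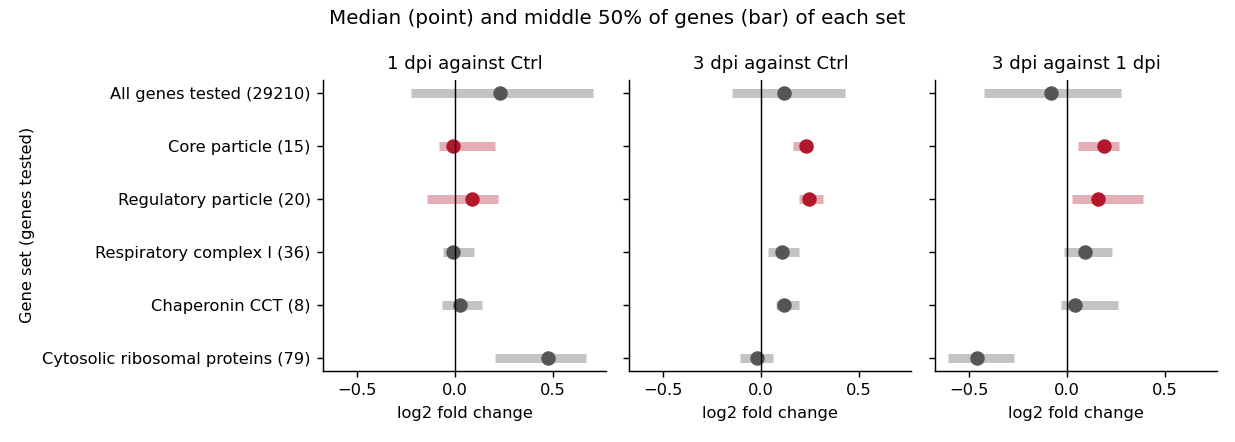
Median (point) and interquartile range (bar) of log2 fold change for all genes, both proteasome particles and other complexes in the 3 comparisons. At 3 dpi both particles lie at 0.23 and 0.24 and the other complexes between -0.02 and 0.12; the ribosomal medians at 1 dpi and between the days, 0.48 and -0.46, change sign with quantile normalization.

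The inducible subunits replace the catalytic ones in the immunoproteasome. Psmb10 read 4.49, 4.73 and 4.75 in Ctrl, 5.41, 5.38 and 5.40 at 1 dpi and 4.88, 4.77 and 4.73 at 3 dpi. Only its 1 dpi arrays stood apart, rising by 0.74 (SE 0.08, limma adjusted p = 0.000257) and lying 0.60 above 3 dpi. Psmb9 rose by 0.33 at 1 dpi, a call lost with median scaling, and fell by 0.45 between the days, and Psmb8, at 0.08 and -0.25, was not called by limma (adjusted p = 0.453 and 0.0628), although the latter passed at an unadjusted p under 0.05 and by the methods' t-test and both were called within slide 2. The median of these 3 was 0.33 at 1 dpi, -0.11 at 3 dpi and -0.45 between the days.

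Among activators and inhibitors, 4 of 5 listed were tested (Psme2 was not), and at 1 dpi 2 were called higher and 2 lower. Psme3, the nuclear activator of the core particle, read 3.50, 3.32 and 3.31 in Ctrl, 4.80, 4.82 and 4.80 at 1 dpi and 3.60, 3.55 and 3.55 at 3 dpi. The 1 dpi arrays were far above both other groups: it rose by 1.43 (SE 0.07, limma adjusted p = 4.3e-06) and fell by 1.24 between the days. Psme1, an interferon-inducible activator, rose by 0.34 at 1 dpi, a call lost with quantile normalization and with median scaling, and fell by 0.49 between the days. Medians of the list were 0.06, -0.02 and -0.22, the first -0.08 with quantile normalization and -0.12 with median scaling, with 1 called higher and 2 lower between the days. Median scaling left 1 of these 2 lower calls.

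The 26S subunits and bound enzymes outside the naming rule were all tested, 6 of 6, with medians of -0.04, 0.14 and 0.08 and 2 called higher and 2 lower at 1 dpi, 2 and 1 at 3 dpi and 2 and 0 between the days (limma; 0 lower at an unadjusted p under 0.05). At 1 dpi quantile normalization gave 1 higher and 3 lower, and median scaling 0 higher and 3 lower. Both gave 1 higher and 1 lower at 3 dpi. Usp14, a deubiquitinating enzyme on the base, rose by 0.49 at 3 dpi (SE 0.06, limma adjusted p = 0.000382), Uchl5, the other such enzyme, was 0.41 higher at 3 dpi than at 1 dpi, and AI314180 (Ecpas), an adaptor that binds the 26S particle, fell by 0.65 at 1 dpi and by 0.53 at 3 dpi. Shfm1 (Sem1), a small lid subunit, was 0.31 higher at 1 dpi, and -0.09 with quantile normalization. Of the 5 assembly factors outside the members 1 was called higher at 1 dpi and at 3 dpi: Pomp, which matures the core particle, by 0.40 and 0.23, calls lost with quantile normalization and with median scaling.

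Of 8 genes that govern transcription of subunit genes, 1 was called higher and 5 lower at 1 dpi, 1 higher at 3 dpi and 5 higher and 1 lower between the days, with medians of -0.27, 0.03 and 0.43, the second -0.01 with quantile normalization and -0.02 with median scaling. Nfya and Nfyb, subunits of the factor that binds CCAAT, fell by 1.21 and by 0.73 at 1 dpi, and Nfya was 0.76 higher at 3 dpi than at 1 dpi. Ngly1 and Ddi2, the enzymes that process Nfe2l1, were 0.64 and 0.63 higher between the days, and Ddi2 rose by 0.28 at 3 dpi, which did not pass with median scaling. Nfe2l1, the factor known to raise subunit genes when proteasome activity falls short, changed by 0.06 and 0.16 and was not called.

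The list of ubiquitin, its activation and shuttling to the proteasome, 17 of 17 tested, had medians of 0.06, 0.03 and 0.06, of which the first 2 turned to -0.10 and -0.04 with quantile normalization and to -0.12 and -0.03 with median scaling. By limma 6 were higher and 4 lower at 1 dpi (33.5% and 21.8% of all genes), 3 and 1 at 3 dpi (17.2% and 14.8%) and 6 and 5 between the days (21% and 23.3%). With quantile normalization the first and the last were 1 and 4 and then 4 and 1, and with median scaling the first 2 were 4 and 6 and then 0 and 1. Uba6, an enzyme that activates ubiquitin, fell by 0.64 at 1 dpi, and Nploc4, a cofactor of the segregase Vcp, rose by 0.61. Ubqln1 and Ubqln2, which shuttle substrates, changed in opposite directions at 3 dpi, by 0.32 and -0.28, the former not passing with median scaling. The ubiquitin gene Ubb fell by 0.61 between the days, a change that was 0.13 with quantile normalization.

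Markers of other cell types moved with the same groups, and their part in the result was not tested. Stromal genes, 11 of 11 tested, with 8 called higher and 1 lower at 1 dpi and 7 and 1 at 3 dpi, summed to 3.91, 3.84 and 3.91 in Ctrl, 6.16, 5.95 and 6.08 at 1 dpi and 7.11, 6.97 and 7.08 at 3 dpi, with Cxcl12 the brightest. Macrophage genes, 10 of 10, with 7 higher and 2 lower at 1 dpi and 10 higher at 3 dpi, summed to 6.49, 6.32 and 6.28, then 6.84, 6.77 and 6.85, then 7.74, 7.71 and 7.68, led by Csf1r. With median scaling 4 macrophage genes were higher and 3 lower at 1 dpi. Both lists were highest on the 3 dpi arrays, as were the subunits. Endothelial genes, 8 of 8, with 6 higher and 1 lower at 1 dpi and 6 higher at 3 dpi, summed to 2.11, 2.0 and 2.04, then 2.78, 2.65 and 2.70, then 3.74, 3.48 and 3.54, led by Stab2, and Flt4 was well above background on 2 of 3 arrays in Ctrl and at 1 dpi.

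B cell genes mostly went the other way: 9 of 10 were called lower on both days and 1 higher at 1 dpi, the sums were 5.40, 5.30 and 5.35 in Ctrl, 3.04, 2.99 and 3.03 at 1 dpi and 3.03, 2.99 and 2.99 at 3 dpi, Cd79b was the brightest, and Rag1 was not well above background after IR. Erythroid genes, 11 of 12 tested (Epb42 was not), had 3 higher and 8 lower at 1 dpi and 9 lower at 3 dpi, sums of 7.41, 7.13 and 7.18, then 8.44, 8.16 and 8.14, then 5.78, 5.80 and 5.70 and Hba-a1 as the brightest. On each 1 dpi array 10 of these 11 genes were well above background. The erythroid list was mostly lower gene by gene while its sum, led by a globin, was highest at 1 dpi.

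Neutrophil genes, 10 of 10, led by Mpo, had 5 higher at 1 dpi, 1 against 2 lower at 3 dpi and 1 against 7 lower between the days, and sums of 10.61, 10.68 and 10.67, then 11.36, 11.27 and 11.25, then 10.75, 10.59 and 10.67, and their medians of 0.31 at 1 dpi and -0.48 between the days turned to -0.16 and 0.19 with quantile normalization, with 2 higher and 5 lower and then 6 higher and 2 lower. Dendritic cell genes, 5 of 6 tested (Xcr1 was not), led by Siglech, had 2 higher and 3 lower at 1 dpi, 3 lower at 3 dpi and sums of 4.60, 5.50 and 5.53, then 6.16, 6.07 and 6.02, then 5.33, 5.15 and 5.12. T and NK cell genes, 6 of 7 tested (Trac was not), led by Cd4, had 5 higher at 1 dpi and 4 at 3 dpi and sums of 1.14, 1.58 and 1.61, then 2.21, 2.05 and 2.14, then 2.07, 1.92 and 1.92. Ctrl replicate 1 was the lowest array for the dendritic and the T and NK lists. Proliferation genes, 11 of 11, led by Birc5, had 1 higher and 5 lower at 1 dpi, 1 higher at 3 dpi and 7 higher between the days, with sums of 8.20, 8.07 and 8.04, then 7.86, 7.90 and 7.93, then 8.27, 8.22 and 8.20.

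With 3 arrays a group an exact permutation test over arrays cannot go below p = 0.10, so all calls rest on limma's shared estimate of spread. Leaving out 1 array moved the calls at 3 dpi from 18 to between 7, without Ctrl replicate 3, and 25, without Ctrl replicate 1, with 8 when Ctrl replicate 2, 10 when 3 dpi replicate 1 and 8 when 3 dpi replicate 2 was left out. Leaving out 1 dpi replicate 1 moved the calls higher at 1 dpi from 10 to 6.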

How the data were processed

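The authors deposited Agilent Feature Extraction files of 9 arrays, read here as intensity (processed signal), and a table of log2 values of the same arrays. The software version, 10.7.1.1, is from the submitters' processing notes. The study's methods name another maker's chip, while the files are Agilent arrays with mm9 positions. Each array had 62976 spots, of which 3671 were controls. Spots flagged as outliers and controls were left out, spots of a probe were averaged (20 probes lost, 0 saturated), and log2 intensity was scaled by each array's 75th percentile, at 9.52, 10.12 and 10.15 (Ctrl), 8.85, 8.96 and 8.94 (1 dpi) and 9.85, 10.04 and 10.02 (3 dpi). A probe was kept (44300 in all) when some group had it well above background on all of its 3 arrays, and the brightest probe of each gene name was tested. limma 3.58.1 in R 4.3.3 fitted the 3 groups together without covariates, two-sided, adjusted by Benjamini-Hochberg over 29210 genes, after a check on simulated data. Other tools were the R package data.table (version 1.17.8), Python 3.11.15, pandas 2.3.3 and matplotlib 3.10.9.

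Named subunits are Psmb5, Psmb6 and Psmb7, the 3 core and 3 regulatory subunits with the largest called change in each comparison, and called subunits against the majority; others, such as Psmd14 or Psmb3, are given by change only and were chosen after their values were seen. Of each related list the 2 called genes with the largest change were named, except where a gene is not reported here, and others there were added after their values were seen. Members and lists were chosen with earlier results of these data known. Roles of subunits are background knowledge.

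Alternatives were quantile and median scaling, normexp (offset 50), testing against the median of all genes, other filters, every probe, a 2-fold minimum, 2 groups only, a replicate block, slide as a block, the methods' t-test, the authors' table and each array left out. The RefSeq mRNA reference, the 5′ and 3′ probe and the regulatory particle without its assembly chaperones were added after seeing the data. The number of arrays limits the precision.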

Additional observations from a re-analysis of the deposited data

Results flagged for a closer look

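Between the days 21% of all genes were called higher and 23.3% lower by limma. The change at 3 dpi differed from that at 1 dpi for 14 subunits, each by a limma test of 3 dpi against 1 dpi (3 arrays each, log2 values, adjusted p under the threshold). Of these, 5 were below Ctrl by a called change at 1 dpi and higher 2 days later: Psmd11 by 0.59 (adjusted p = 0.000165), Psmc6 by 0.52 (adjusted p = 0.00205), Psma1 by 0.51 (adjusted p = 0.00122), Psmd5 by 0.49 (adjusted p = 0.00143) and Psmd10 by 0.39 (adjusted p = 0.00182).

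The other 9 had no called change at 1 dpi on the probe used for the gene, although 2 further RefSeq mRNA probes of Psmd6 (-0.54 and -0.30) and 1 of Psma4 (-0.35) were called lower there. In the lid Psmd14 was higher by 0.47, Psmd12 by 0.40 and Psmd6 by 0.35, and in the base Psmc2 by 0.29. In the alpha ring the differences were 0.31 for Psma6, 0.29 for Psma3, 0.28 for Psma5, 0.24 for Psma2 and 0.19 for Psma4, the last at a limma adjusted p of 0.0497. With every probe as a feature that probe of Psma4 was not called (limma adjusted p = 0.0527). In the authors' table of values, 7 subunits were lower between the days, and the differences of Psma3 (-1.16) and Psmd11 (-0.32) were reversed. The causes were not tested.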

How the results depend on the processing

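Of the counts of calls under alternatives other than leaving out an array, 120 stayed within 1.5 times and 33 moved; of the particle medians 22 could not move by the way they are taken, and of the other 65, 41 stayed within the replicate SD (0.12 core, 0.08 regulatory), 22 moved and 2 reversed; of the changes of named subunits 429 kept direction and side of the threshold, 53 lost a call, 4 gained one and 7 reversed. Of the lost calls 23 were at the 2-fold rule, the others of Psmb5, Psmb6, Psmc1, Psmd3, Psmd11, Psma3 and Psma6, and the gained ones of Psmb5 and Psmb7. Counts and medians that moved and changes that reversed follow, and the cause was not tested. Quantile normalization gave 3 subunits higher and 12 lower at 1 dpi, with the regulatory particle at -0.030 relative to all genes. Median scaling gave 0 higher at 1 dpi and 6 at 3 dpi. Normexp gave 10 lower at 1 dpi, core -0.50 and regulatory -0.42; regulatory 0.21 at 3 dpi; and 22217 genes called between the days, core 0.59 and regulatory 0.56. Tested against the median of all genes, 0 subunits were higher and 17 lower at 1 dpi and 6 higher at 3 dpi. Without a filter the core stood at -0.36 and the regulatory particle at -0.28 at 1 dpi, 11 subunits were higher at 3 dpi, and the regulatory particle was at 0.33 between the days.

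With every probe as a feature 24526, 14484 and 20219 were called at 1 dpi, 3 dpi and between the days, subunit probes 17 higher and 12 lower at 1 dpi, 4 lower at 3 dpi, and 24 higher and 5 lower between the days. There a second probe had the other sign for Psma3 (-1.18 between the days), for Psmc2 (-0.085 at 3 dpi, limma adjusted p = 0.317) and for Psmd11 (0.31 at 1 dpi, limma adjusted p = 0.459, and -0.51 between the days, adjusted p = 0.262), whose probe was well above background on 6 of 9 arrays; only that of Psma3 passed. At least 2-fold, 4334, 2579 and 2527 genes and 0 subunits were called by limma in the 3 comparisons. With only the 2 groups compared, 7 subunits were higher at 3 dpi. With slide as a fixed block the core was at -0.10 and 0.27 and the regulatory particle at -0.034 and 0.29 at 1 and 3 dpi, and as a random block (correlation 0.65) the latter was at 0.24. The methods' t-test at their threshold called 1 subunit lower between the days.

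In the authors' table (21694 genes) the regulatory particle was at -0.011 at 1 dpi and, reversed, -0.0079 between the days, with the core at 0.15; 8 subunits were higher and 3 lower at 3 dpi and 7 lower between the days, and Psmd3 (-0.32 at 1 dpi), Psma3 (-1.16) and Psmd11 (-0.32, both between the days) reversed. Relative to genes on RefSeq mRNAs the core was at -0.091 and, reversed, the regulatory particle at 0.01 at 1 dpi, and 0.15 and 0.12 between the days. With the 5′ probe they were at -0.38 and -0.30 at 1 dpi, 11 subunits were higher at 3 dpi, 1 was lower between the days and the regulatory particle was at 0.41 there; the 3′ probe moved none of these.

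With each array left out, genes called ranged from 13162 to 16778, 7215 to 10466 and 9792 to 17207; subunits higher from 6 to 13, 7 to 25 and 11 to 17; lower 6, 1 and 0; the core from -0.28 to -0.10, 0.047 to 0.28 and 0.22 to 0.34, and the regulatory particle from -0.21 to -0.033, 0.074 to 0.30 and 0.24 to 0.25. Without 3 dpi replicate 1 Psmb7 was called between the days (0.34, limma adjusted p = 0.0413). Replicate numbers do not pair the samples (correlations of deviations from -0.107 to 0.128). A replicate block gave 15135, 8411 and 11887 genes and subunits 10 higher and 6 lower, 16 and 1, and 12 and 0.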
